A study of Mus musculus with 16 samples.

Results

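The 10 genes described here are ones that T cells switch on early after their antigen receptor (TCR) is triggered. They are Nr4a1, Nr4a2, Nr4a3, Egr1, Egr2, Egr3, Cd69, Myc, Irf4 and Nfatc1, and they were measured in memory CD4+ T cells of mice lacking one of 2 heterochromatin proteins, HP1α or HP1γ. The genes were chosen by name, with earlier results of these data known. All 10 were found among the 56748 genes of the count table, where 29248 genes had a count in any sample. RNA was sequenced from splenic CD4+ memory cells, sorted by surface markers that included low or absent CD25 and high CD44, of male mice aged 6 to 12 weeks of mixed background (129/Sv x C57BL/6), in 4 groups of 4 samples. A treatment label on all 16 samples speaks of transferred Treg cells, and the series' design text of grafted mice, whereas the study's methods describe memory cells taken directly from mutant and control littermates. The account that follows is that of the methods, with groups from the genotype labels. HP1α KO cells were Hp1a-/- and HP1α WT cells Hp1a+/+, from littermates of a line in which CMV-cre, which acts in all tissues, had removed the floxed Hp1a allele. HP1γ KO cells came from mice homozygous for a floxed Hp1g allele that also carried Cd4-cre, which acts in T cells, and HP1γ WT cells from littermates with the floxed allele and no Cre, and effects of Cre itself cannot be told apart from those of the deletion. Each line was compared with its own littermates, and differences between lines cannot be told apart from differences in colony, handling or genetic background. Sources used here do not say whether each sample was 1 animal, so p-values measure only the spread between these samples.

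The samples held 26694045 to 40199637 estimated counts each. Markers of CD4 T cells were abundant, with Trac at 1553 to 1855 TPM (a level scaled to library size and corrected for transcript length), Cd4 at 556 to 836 TPM and the memory marker Cd44 at 132 to 198 TPM. Cd8a reached at most 4.56 TPM, whereas Foxp3, the regulatory T cell factor, stood at 34.2 to 90.0 TPM. As a check of the labels, Cbx5, which encodes HP1α, averaged 27.3 ± 2.88 CPM (counts scaled to library size; mean ± SD, n = 4) in HP1α KO and 40.6 ± 9.52 in HP1α WT, without overlap but not called (log2 fold change -0.58, edgeR quasi-likelihood adjusted p = 0.946). It averaged 25.1 ± 4.81 CPM in HP1γ KO and 31.3 ± 4.95 in HP1γ WT. HP1α KO overlapped HP1γ KO, so Cbx5 RNA did not single out the HP1α KO samples. The study reported that HP1α was absent from naive CD4+ T cells of this line, with protein measured by western blot. Cbx3, which encodes HP1γ, averaged 47.0 ± 1.77 CPM in HP1γ KO and 84.3 ± 8.57 in HP1γ WT (log2 fold change -0.82, edgeR adjusted p = 0.0015).

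Triggering of the TCR raises calcium, which activates the phosphatase calcineurin and moves NFAT factors into the nucleus, and it activates the ERK kinases, which act through serum response factor and its partners. Both branches switch on immediate early genes within minutes, without new protein synthesis. NR4A1, NR4A2 and NR4A3 are orphan nuclear receptors whose transcription follows TCR signalling closely and which restrain effector function, and EGR1, EGR2 and EGR3 are zinc finger factors downstream of ERK. CD69 is a surface protein that holds recently activated cells in tissue by removing the egress receptor S1PR1, MYC drives growth, IRF4 is induced in proportion to signal strength and supports effector differentiation, and NFATc1 is the NFAT family member whose own gene is induced by NFAT.

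Promoter sequences are given first, in the GRCm39 build. The 250 bases before the start of the canonical transcript are shown for 4 of the 10 members. Nr4a3 and Irf4 differed most between lines, and Nr4a1 had the highest level of the members. Egr2 was the only one of the 7 members searched that held a CArG box, the site of serum response factor. The sequences are printed 5′ to 3′ on the strand of the gene. Capitals mark the core of the cyclic AMP response element (TGACG, bound by CREB and ATF proteins) and the CArG box on either strand. The windows are that of Nr4a1 at chr15:101164410-101164659 (plus strand), Nr4a3 at chr4:48044903-48045152 (plus strand), Irf4 at chr13:30932959-30933208 (plus strand) and Egr2 at chr10:67373442-67373691 (plus strand).
Nr4a1: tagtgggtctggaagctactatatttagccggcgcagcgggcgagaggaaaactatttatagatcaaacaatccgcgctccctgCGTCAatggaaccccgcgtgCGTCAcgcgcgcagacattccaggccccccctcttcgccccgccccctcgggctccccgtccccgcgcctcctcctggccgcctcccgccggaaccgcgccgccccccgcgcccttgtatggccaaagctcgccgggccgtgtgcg
Nr4a3: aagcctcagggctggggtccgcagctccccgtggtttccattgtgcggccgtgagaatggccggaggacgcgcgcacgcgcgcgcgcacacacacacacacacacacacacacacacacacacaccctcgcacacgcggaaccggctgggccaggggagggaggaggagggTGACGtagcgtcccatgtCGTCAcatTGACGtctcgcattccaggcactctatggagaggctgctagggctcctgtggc
Irf4: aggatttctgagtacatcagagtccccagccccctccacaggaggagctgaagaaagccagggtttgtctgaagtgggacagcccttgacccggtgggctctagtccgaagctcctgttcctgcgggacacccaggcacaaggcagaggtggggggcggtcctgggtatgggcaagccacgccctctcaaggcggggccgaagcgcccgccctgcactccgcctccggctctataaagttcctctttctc
Egr2: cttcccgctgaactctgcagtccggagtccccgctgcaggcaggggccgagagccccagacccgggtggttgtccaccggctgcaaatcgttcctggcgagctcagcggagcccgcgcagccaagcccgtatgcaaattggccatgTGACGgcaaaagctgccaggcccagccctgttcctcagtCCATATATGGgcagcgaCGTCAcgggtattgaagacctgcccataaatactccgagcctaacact

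The promoters of Egr1, Egr3 and Nfatc1 were not analysed here, which left 7 members. The TGACG core was found in 3 of these 7 windows, with 3 matches before Nr4a3 and 2 each before Nr4a1 and Egr2, while 18.04% of 21757 protein-coding promoters of the same length held one. A CArG box, CCATATATGG, ended 56 bases before the start of Egr2, and 1.40% of promoters held a CArG box. The 5-base NFAT core GGAAA was found in 4 of the 7 windows and in 58.0% of all promoters. Neither the full element TGACGTCA, which contains TGACG (1.70% of promoters), nor the AP-1 site TGANTCA (6.18%), the EGR site GCGNGGGCG (4.48%) or the NR4A site AAAGGTCA (1.20%) was found in any of the 7. The windows of Irf4 and Nr4a2 held none of the motifs searched. A match is a string of letters in the window and no evidence of binding.

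The members lie on 8 chromosomes. Nr4a1 is at chr15:101151980-101172681, Nr4a2 at chr2:56996842-57014331, Nr4a3 at chr4:48045153-48086447 and Irf4 at chr13:30933209-30950959 (GRCm39). Egr1 is at chr18:34992876-34998049, Egr2 at chr10:67371305-67378018, Egr3 at chr14:70314350-70320063, Cd69 at chr6:129244288-129252399, Myc at chr15:61857227-61862223 and Nfatc1 at chr18:80649266-80756295. Nr4a2, Cd69 and Nfatc1 are on the minus strand and the others on the plus strand. The printed windows end at the base before the canonical transcript start, which for Nr4a1 and Egr2 lies inside the annotated gene because longer isoforms begin upstream.

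Per length, Nr4a1 was the highest of the members, at 1064 ± 270.0 TPM (SD over 16 samples), and ranked 151 among 15776 genes tested. It was followed by Nr4a3 (553 ± 303 TPM), Cd69 (403 ± 58.4), Nfatc1 (225 ± 31.4), Nr4a2 (221 ± 82.1), Egr1 (175 ± 25.5), Irf4 (90.4 ± 40.2), Myc (44.4 ± 7.15), Egr2 (24.0 ± 5.16) and Egr3 (16.4 ± 2.73). In that order the ranges over samples overlapped between every pair of neighbours except Cd69 and Nfatc1. Compared within each sample, Nr4a3 was below Nr4a1, Egr2 below Myc and Egr3 below Egr2 in all 16 samples. The order of the remaining overlapping neighbours changed between samples. Nr4a3 varied 9.17-fold between its lowest and highest sample, Irf4 3.72-fold, Nr4a2 3.31-fold and Nr4a1 2.63-fold, whereas Nfatc1, Cd69, Myc, Egr3 and Egr1 varied by 1.60-fold to 1.86-fold and Egr2 by 2.19-fold.

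**Figure D1:**
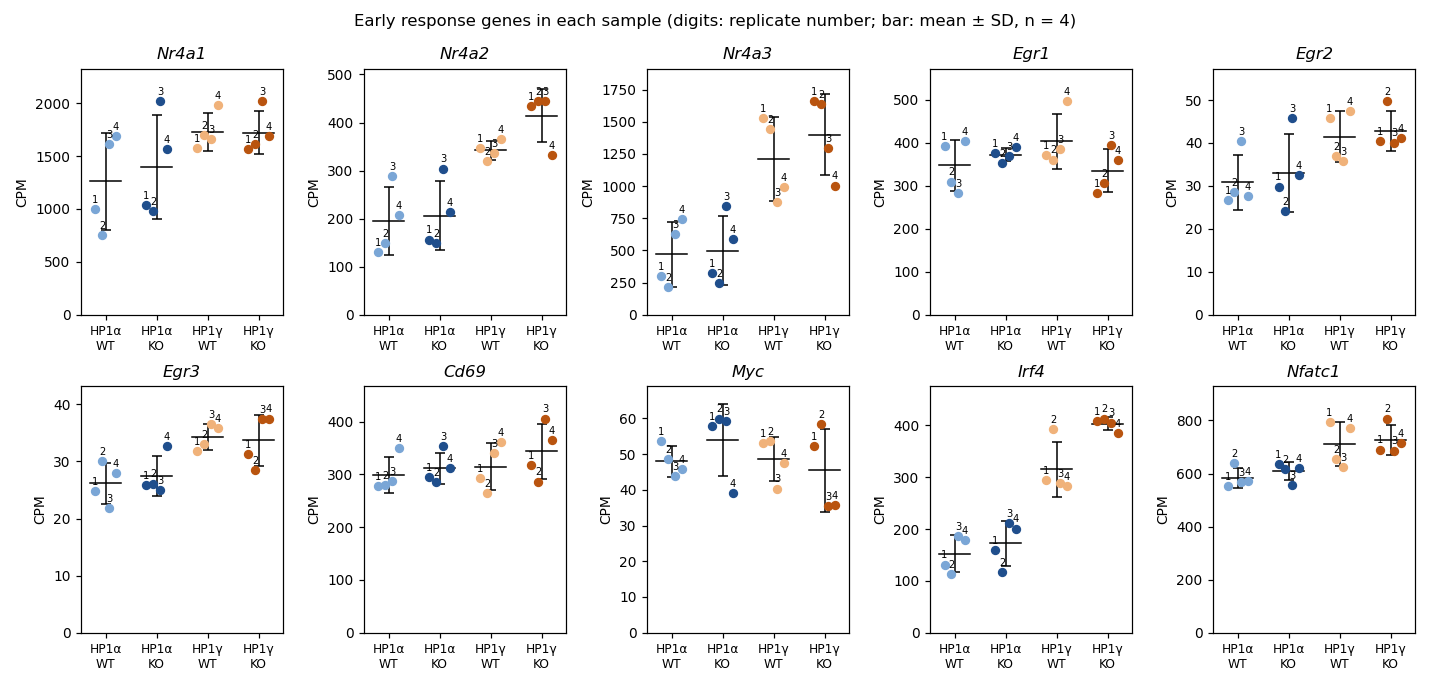
Level of each of the 10 genes (CPM, linear axis from 0) in the 4 samples of each group, with the replicate number beside each point and the mean ± SD of the group as a bar. Nr4a2, Nr4a3 and Irf4 sit lower in both HP1α groups than in both HP1γ groups, and in the HP1α line Nr4a1, Nr4a2, Nr4a3 and Irf4 are higher in replicates 3 and 4 than in replicates 1 and 2 of either genotype.

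Loss of HP1α left the early response genes without a detectable change. In edgeR, 0 of 10 members were called at an adjusted p under 0.05, 0 of 10 had an unadjusted p under 0.05, and DESeq2 also called 0. Over all genes, 0% were called in this comparison and 4.27% had an unadjusted p under 0.05. All 10 log2 fold changes were above 0, from 0.06 for Cd69 to 0.17 for Irf4, with a median of 0.09 beside 0.0026 over the 14881 genes tested, and none exceeded the spread between samples (smallest unadjusted p 0.222, for Myc). In bulk RNA, fewer cells with a transcript and less transcript per cell cannot be told apart, here and in the comparisons that follow.

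In this line the NR4A genes had the widest spread between samples of 1 genotype. Nr4a3 was at 322, 247, 842 and 586 CPM in HP1α KO replicates 1 to 4 and at 299, 215, 625 and 741 CPM in HP1α WT. Replicates 3 and 4 were high and replicates 1 and 2 low in both genotypes, and the groups overlapped over nearly their whole range. Its 95% confidence interval on the log2 scale ran from -0.90 to 1.07, wide enough to hold a change close to 1 log2 unit in either direction. Nr4a1 was at 1034, 978, 2023 and 1563 CPM in KO and 997, 753, 1614 and 1686 CPM in WT. Irf4, at 159, 117, 212 and 201 CPM in KO and 132, 114, 186 and 179 CPM in WT, followed the same split, as did Nr4a2, at 131 to 156 CPM in replicates 1 and 2 and 208 to 304 CPM in replicates 3 and 4. The split by replicate number was noticed in the values, and no label gives it a meaning. The interval was narrowest for Nfatc1 (log2 fold change 0.06, -0.08 to 0.19).

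The summed level of 10 myeloid marker genes split in the same way in this line, at 82.9 to 102 CPM in replicates 1 and 2 of both genotypes and 155 to 198 CPM in replicates 3 and 4, with none of the 10 at 0 in every sample. The erythroid and platelet list of 7 genes was at 16.6 to 45.9 CPM and 63.6 to 536 CPM in the same samples. Their part in the levels of the NR4A genes and Irf4 was not tested. The B cell list of 10 genes was at 61.5 to 83.9 CPM in HP1α KO and 55.6 to 73.6 CPM in HP1α WT.

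Loss of HP1γ with Cd4-cre also gave 0 of 10 members called in edgeR, where 0.327% of 14975 genes were called. An unadjusted p under 0.05 was reached by 2 members, both higher in KO, and 6.34% of all genes did so in that direction. Irf4 was at 409, 413, 406 and 385 CPM in HP1γ KO and 294, 394, 289 and 283 CPM in HP1γ WT. The KO samples lay close together, and only WT replicate 2 reached into their range. The log2 fold change was 0.38 ± 0.10 (SE; 1.30-fold; edgeR adjusted p = 0.218). DESeq2 called this 1 member (adjusted p = 0.0400), and so did edgeR without HP1γ WT replicate 2 (log2 fold change 0.50, adjusted p = 0.0182), the sample with the highest WT value.

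Nr4a2 was at 434, 445, 445 and 332 CPM in HP1γ KO and 346, 320, 336 and 365 CPM in HP1γ WT. KO replicate 4 fell among the WT samples and the other 3 KO samples were above them all (log2 fold change 0.30 ± 0.10, edgeR adjusted p = 0.325). The third NR4A gene, Nr4a3, averaged 1399 ± 312 CPM in KO and 1211 ± 324 in WT (log2 fold change 0.23 ± 0.20), and Nr4a1 was nearly level at 1719 ± 204 and 1728 ± 176 CPM (log2 fold change 0.01 ± 0.09). Among the EGR genes, Egr1 was at 283, 306, 394 and 359 CPM in KO and 371, 361, 385 and 498 CPM in WT (log2 fold change -0.25 ± 0.13; edgeR adjusted p = 0.470). Its groups overlapped. The remaining 5 members had log2 fold changes from -0.07 (Myc) to 0.15 (Cd69), with adjusted p of 0.657 or more. The median of all 10 was 0.06, beside 0.0005 over all genes.

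Other measures also separated the genotypes of this line. The 10 B cell genes summed to 63.8 to 69.4 CPM in HP1γ KO and 47.9 to 57.7 CPM in HP1γ WT, without overlap, although 0 of the 9 tested were called, and the 5 plasma cell genes summed to 168 to 204 CPM and 143 to 185 CPM, which overlapped. Genes with ribosomal protein names (Rps or Rpl and a digit, pseudogenes included, here and below) took 5.18% to 5.62% of counts in KO and 5.73% to 6.56% in WT, again without overlap. None of the B cell and plasma cell genes was at 0 in every sample. Irf4 is also expressed by B cells and plasma cells, and the part of these measures in its level was not tested.

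The knockout effects were then compared between lines in a fit of all 16 samples. No member was called (0 of 10 by edgeR, by DESeq2 and by limma on TPM), where 0.0507% of 15776 genes were called. An unadjusted p under 0.05 was reached by 0 of 10 members and 9.58% of genes. The largest difference was that of Egr1, whose log2 fold change was 0.35 ± 0.18 higher in the HP1α line than in the HP1γ line (edgeR adjusted p = 0.547). For the pair of genes that stood highest in HP1γ KO, the difference was -0.19 ± 0.25 for Irf4 and -0.21 ± 0.33 for Nr4a2, well within error.

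**Figure D2:**
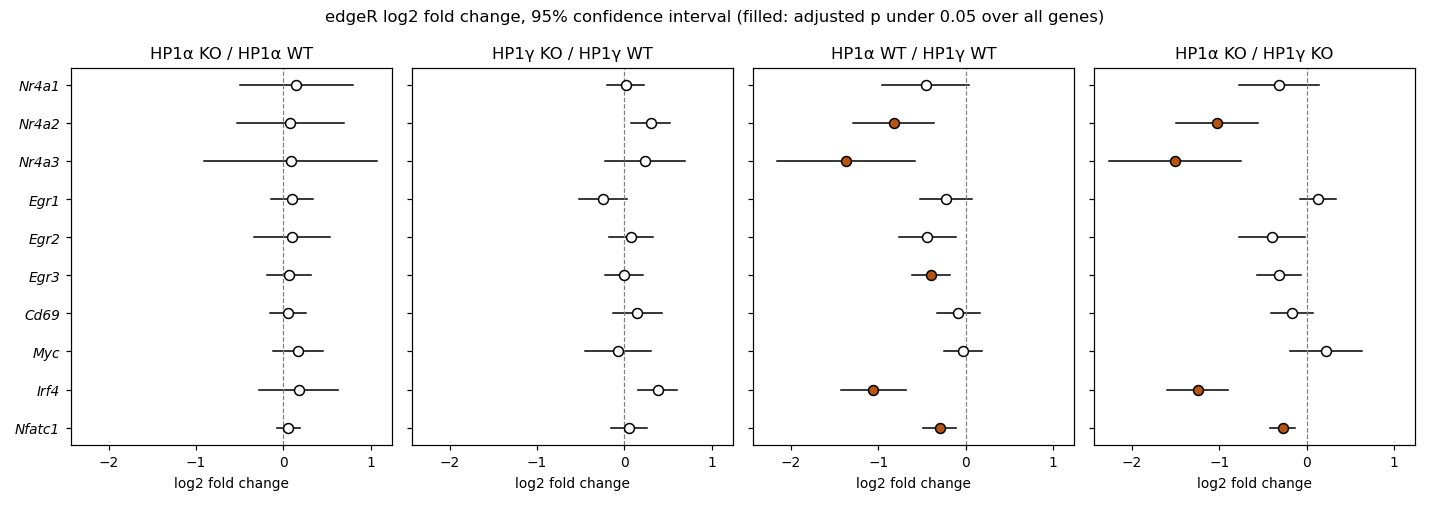
log2 fold change of each member with its 95% confidence interval in 4 comparisons (edgeR), with filled points for adjusted p under 0.05 over all genes. No point is filled in either comparison of KO with WT, while 5 are filled between the WT groups and 4 between the KO groups of the lines, each of them below 0.

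Some of the early response genes differed between the lines themselves. In the comparison of WT littermates, 5 of 10 members were called, and each of the 5 was lower in HP1α WT than in HP1γ WT. They were Irf4, Nr4a3, Nr4a2, Egr3 and Nfatc1. Over 14804 genes tested, 12.8% were called, or 8.25% in the lower direction. All 10 log2 fold changes were below 0, with a median of -0.42 beside 0.02 over all genes, and all 10 stayed below 0 in each of the 9 other settings that kept every sample. Groups did not overlap for 4 members, all lower, beside 10.2% of genes in that direction. At the study's threshold, which also asks for a change of more than 1 log2 unit, 2 members passed (Irf4 and Nr4a3), beside 1.9% of all genes. Between lines, colony and handling cannot be told apart from genotype of the line, and neither group lacked its HP1 protein.

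Irf4 showed the clearest difference. It was at 132, 114, 186 and 179 CPM in HP1α WT and 294, 394, 289 and 283 CPM in HP1γ WT, so that the groups did not overlap. The log2 fold change was -1.06 ± 0.17 (2.08-fold; edgeR adjusted p = 0.00569), and Irf4 was called in each of the 8 fits that left out 1 sample and in each of the 9 other fits (adjusted p at most 0.0401). Of 9 IRF4 partners and paralogs, 2 were called, both lower in HP1α WT (beside 8.25% of all genes in that direction), namely Bhlhe40, a repressor of Il10 in T cells (-1.01 ± 0.10, adjusted p = 0.0010), and Prdm1, which encodes BLIMP-1 (-0.48 ± 0.10, adjusted p = 0.0147), and the list's median was 0.02, as over all genes.

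Of the NR4A family, Nr4a3 differed most in size and was also the most variable. It was at 299, 215, 625 and 741 CPM in HP1α WT and 1531, 1442, 878 and 992 CPM in HP1γ WT. The highest HP1α sample was below the lowest HP1γ sample, although values ranged widely within each group. The log2 fold change was -1.37 ± 0.36 (2.58-fold; edgeR adjusted p = 0.0340). Nr4a2 was at 131, 150.1, 289 and 208 CPM in HP1α WT and 346, 320, 336 and 365 CPM in HP1γ WT, again without overlap (-0.82 ± 0.21; 1.77-fold; adjusted p = 0.0308). Nr4a1, at 997, 753, 1614 and 1686 CPM against 1571, 1696, 1664 and 1979 CPM, overlapped and was not called (-0.46 ± 0.23, adjusted p = 0.203).

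Ratios within the family were compared as well. The TPM ratio of Nr4a3 to Nr4a1 was 0.305 ± 0.0849 in HP1α WT and 0.624 ± 0.174 in HP1γ WT (SD, n = 4), and 0.318 ± 0.0642 in HP1α KO and 0.728 ± 0.188 in HP1γ KO. In either genotype the lines did not overlap (exact permutation test of log2 ratios, two-sided p = 0.0286, the smallest that 4 against 4 samples can give, adjusted p = 0.114 over 12 comparisons of 3 NR4A ratios, so that no ratio passed). Between KO and WT the ratio differed by 0.07 log2 units in the HP1α line and by 0.23 in the HP1γ line (exact permutation p = 0.800 and 0.457). Between WT groups the ratios of Nr4a2 to Nr4a1 and of Nr4a3 to Nr4a2 overlapped (exact permutation p = 0.0857 and 0.143). The ratio of Nr4a3 to Nr4a1 was chosen after the levels of the separate genes had been seen.

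Egr3 was the EGR gene called, at 24.9, 30.0, 21.9 and 28.0 CPM in HP1α WT and 31.8, 33.0, 36.6 and 35.8 CPM in HP1γ WT. The groups did not overlap, and the log2 fold change was -0.40 ± 0.10 (1.32-fold; edgeR adjusted p = 0.0272). Egr2 was at 26.7, 28.6, 40.4 and 27.7 CPM against 45.9, 36.9, 35.8 and 47.3 CPM, a log2 fold change of similar size (-0.44 ± 0.15) that missed the threshold (adjusted p = 0.0759), with HP1α WT replicate 3 inside the HP1γ range. Egr1 averaged 347 ± 59.7 CPM and 404 ± 63.6 CPM (-0.23 ± 0.13, adjusted p = 0.285). Nfatc1 was at 553, 640, 567 and 573 CPM in HP1α WT and 793, 656, 625 and 770.2 CPM in HP1γ WT, overlapping by 1 sample (-0.30 ± 0.09; 1.23-fold; adjusted p = 0.0485). Cd69 (299 ± 34.3 and 315 ± 44.1 CPM) and Myc (48.0 ± 4.26 and 48.7 ± 6.23 CPM) did not differ detectably, with log2 fold changes of -0.08 ± 0.11 and -0.03 ± 0.10.

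The number of members called depended on single samples. It was 1 without HP1α WT replicate 1 or without HP1γ WT replicate 1 or 2, 2 without HP1α WT replicate 2, and 3 without HP1α WT replicate 4, beside 5 in the full fit. Nr4a3 and Egr3 were called in 4 of the 8 fits that left out 1 sample, Nr4a2 in 3 and Nfatc1 in 1. Among marker lists, the 5 memory T cell genes summed to 2436 to 2605 CPM in the HP1α line and 2631 to 3258 CPM in the HP1γ line, without overlap. The 5 plasma cell genes summed to 94.9 to 162 CPM in HP1α WT and 143 to 185 CPM in HP1γ WT, and counts of ribosomal protein genes took 6.12% to 6.85% and 5.73% to 6.56% of the total. Their part in the difference was not tested.

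The KO groups of the lines were also compared, a test added after the WT values were known. There 4 members were called, where 32.8% of 15020 genes were called (16.8% in the lower direction). They were Irf4 (-1.25 ± 0.16, edgeR adjusted p = 0.0011), Nr4a2 (-1.03 ± 0.21, adjusted p = 0.00583), Nr4a3 (-1.51 ± 0.34, adjusted p = 0.00888) and Nfatc1 (-0.28 ± 0.07, adjusted p = 0.0110), each lower in HP1α KO, and the same 4 were the members without overlap in that direction, beside 15% of all genes. Egr3 just missed the threshold (-0.32 ± 0.11, adjusted p = 0.0527). Egr1 (0.13 ± 0.09) and Myc (0.22 ± 0.19) had the opposite sign and were not called. These KO groups also stood apart without overlap in the share of ribosomal protein counts (6.70% to 7.53% in HP1α KO and 5.18% to 5.62% in HP1γ KO) and of mitochondrial counts (1.62% to 1.98% and 2.17% to 2.60%). Of 5 erythroid and platelet genes tested, 4 were called lower in HP1α KO (median log2 fold change -2.83), with the list of 7 at 35.8 to 187 CPM and 81.0 to 1168 CPM. Their part in the difference was not tested. The samples of this comparison are other than those of the WT comparison, but both compare the same pair of colonies.

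Other genes of these pathways were then counted in the comparison of WT littermates. They came from lists of known members, chosen with earlier results of these data known, so their counts beside all genes are a description. Feedback genes of ERK signalling, listed together with the EGR corepressor genes Nab1 and Nab2, were the list with the lowest median log2 fold change (-0.54, beside 0.02 over all genes). Of its 12 genes, 6 were called, all lower in HP1α WT and all encoding ERK or MAP kinase inhibitors, beside 8.25% of all genes in that direction. They included the inhibitors Spry1 (-0.63 ± 0.11, edgeR adjusted p = 0.0071) and Spry2 (-1.05 ± 0.21, adjusted p = 0.0122) and the MAP kinase phosphatases Dusp5 (-0.65 ± 0.13, adjusted p = 0.0143) and Dusp4 (-1.02 ± 0.21, adjusted p = 0.0145). NF-kB subunits and inhibitors had 6 of 12 called, again all lower in HP1α WT (median -0.34). Examples were Rel, the lymphoid subunit c-Rel (-0.80 ± 0.12, adjusted p = 0.0048), Relb (-0.63 ± 0.11, adjusted p = 0.0084) and the inhibitor gene Nfkbie (-0.98 ± 0.13, adjusted p = 0.0031).

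Of 16 immediate early genes outside the 10 members, 3 were called, all lower in HP1α WT (beside 8.25% of all genes lower and 12.8% called), namely Klf4 (-0.72 ± 0.10), Fosl2 (-1.19 ± 0.24) and Atf3 (-1.50 ± 0.26), and the median was -0.14. Receptors and cytokines induced by the TCR had 4 of 16 lower and 1 higher. Tnfsf11, which encodes RANKL (-1.02 ± 0.16), Tnfsf8, which encodes CD30 ligand (-0.93 ± 0.16), Icos (-0.48 ± 0.13) and Tnfrsf4, which encodes OX40 (-0.82 ± 0.24), were lower in HP1α WT, while Cd40lg, which encodes CD40 ligand, was higher (0.44 ± 0.11). In the calcineurin-NFAT list 1 of 11 genes tested was called, the calcineurin subunit gene Ppp3r1 (-0.40 ± 0.12, edgeR adjusted p = 0.0499), a share near that over all genes.

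Of 12 genes of the MYC network, 3 were called lower in HP1α WT, beside 8.25% of all genes, while Myc itself was not called. These were Mnt (-0.83 ± 0.11), Mxd1 (-0.92 ± 0.16) and Mxi1 (-1.07 ± 0.21), which encode proteins that compete with MYC for MAX, and the list's median was -0.03. Of 12 known MYC target genes, 3 were called lower, Odc1 of polyamine synthesis (-1.02 ± 0.13), Mat2a (-0.50 ± 0.07) and the amino acid transporter gene Slc7a5 (-0.72 ± 0.16), with a median of -0.16. In the list of CD69's partner and quiescence genes, 3 of 10 were called lower, namely S1pr1, whose product CD69 removes from the surface (-0.74 ± 0.11), Btg1 (-0.58 ± 0.09) and Tob1 (-0.39 ± 0.09). The list of 9 heat shock genes that also respond to tissue handling had a median of 0.01, beside 0.02 over all genes. Of these, Hspa1a (2.28 ± 0.61) and Hspa1b (2.48 ± 0.68) were called higher in HP1α WT, beside 4.55% of all genes in that direction, and 0 were called lower. The sequences of that pair are nearly identical, so how reads were split between them is uncertain, and the part of tissue handling in the difference between lines was not tested.

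**Figure D3:**
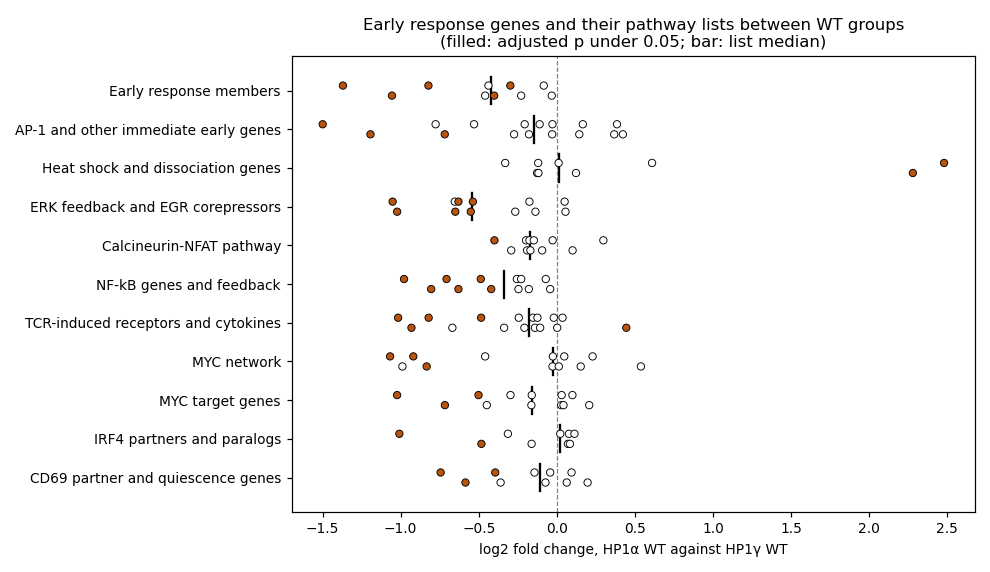
log2 fold change of HP1α WT against HP1γ WT for each gene of the 10 members and of 10 pathway lists, with filled points for adjusted p under 0.05 (edgeR) and a bar at the list's median. The medians of the early response genes (-0.42), the ERK feedback list (-0.54) and the NF-kB list (-0.34) are the lowest, and the 2 filled points far above 0 are Hspa1a and Hspa1b.

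In the comparisons of KO with WT these lists hardly moved. In the HP1α line 0 genes of any of the 10 lists were called (edgeR). With loss of HP1γ, 1 gene was called, the MYC target Cdk4, a cell cycle kinase gene, which fell by 0.36 on the log2 scale in KO (SE 0.06, edgeR adjusted p = 0.0316). Between the KO groups of the lines, 16% of all genes were called higher in HP1α KO and 16.8% lower. There the ERK feedback list had 0 higher and 6 lower, and the NF-kB list 0 and 8. Other lists did not repeat the WT direction. The immediate early list had 5 higher and 5 lower (median 0.13), MYC targets 4 and 5, quiescence genes 2 and 3 and heat shock genes 0 and 1.

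The variation between samples of 1 group was then compared among members. Log2 CPM values were centred on the mean of each group, so that differences of genotype and line were removed, and 45 pairs of members were correlated over the 16 samples and over the 8 samples of each line (135 relations in all, with p-values adjusted over the 45 pairs of each set). Over both lines, 23 pairs were positive and 22 negative, with a median Pearson r of 0.04, beside -0.01 between members and all other genes tested. However, over both lines r was over 0.5 in 28.9% of member pairs, beside 9.65% of pairs with other genes. In the HP1α line, where the NR4A genes split by replicate number, 15 of 45 member pairs did so, beside 18.5% of pairs with other genes. In the HP1γ line it was 9 of 45 member pairs, a share close to the 18.9% of pairs with other genes. With 16 or 8 samples that share sorting and library steps, these shares are a description.

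For Nr4a3 and Irf4, Pearson r was 0.89 and Spearman rho 0.86 over 16 samples (permutation p = 0.00141 and 0.00343, adjusted p of r = 0.0214). Without the 2 samples farthest from the median of Nr4a3, r was 0.83. It was 0.53 over the 8 samples of the HP1γ line, where the exact permutation p was 0.201. For Nr4a1 and Cd69, r was 0.61 and rho 0.64 (permutation p = 0.00129 and 0.00277, adjusted p = 0.0214), and 0.58 without the 2 farthest samples. In the HP1γ line it was 0.74, and 0.25 without 2 samples, so that the relation there rests on those samples. Cd69 also split by replicate number in that line, at 264 to 317 CPM in replicates 1 and 2 and 341 to 406 CPM in replicates 3 and 4. For Nr4a2 and Egr2, r was 0.80 and rho 0.68 (permutation p = 0.00143 and 0.0121, adjusted p = 0.0214), but it fell to 0.56 without the 2 farthest samples and was 0.39 in the HP1γ line. These were the 3 pairs of 45 with an adjusted p under 0.05. Each holds an NR4A gene, and in the HP1α line those genes split by replicate number in both genotypes. The shuffles take samples of a group as exchangeable, so these p-values carry that split and cannot show a relation apart from it.

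In the HP1α line the NR4A genes put the samples into 2 clusters of 4, so no r over that line is given for them, and relations within a cluster cannot be tested with 4 samples. Replicates 1 and 2 of both genotypes held Nr4a1 at 753 to 1034 CPM and Nr4a3 at 215 to 322 CPM, and replicates 3 and 4 held them at 1563 to 2023 CPM and 586 to 842 CPM. The same 8 samples enter the values over both lines. For Nr4a1 and Nr4a3 in the HP1γ line, r was -0.45 (exact permutation p = 0.325). There Nr4a3 was higher in replicates 1 and 2 (1442 to 1663 CPM) than in replicates 3 and 4 (878 to 1295 CPM), while Nr4a1 ranged over 1564 to 1696 CPM and 1664 to 2016 CPM in the same samples.

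**Figure D4:**
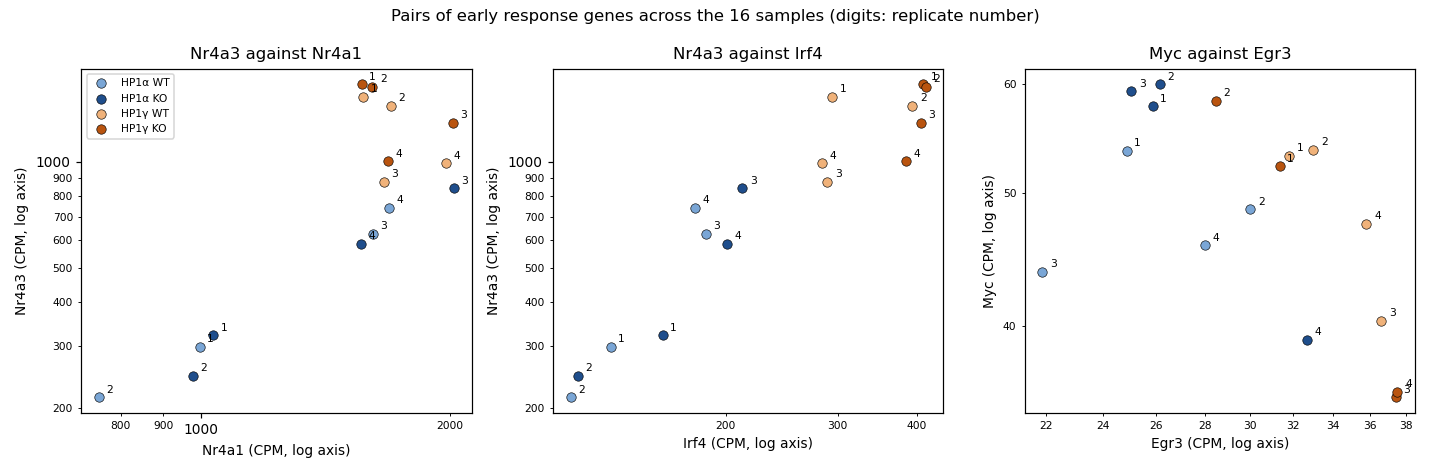
CPM of 3 pairs of members in the 16 samples (both axes logarithmic), coloured by group, with replicate numbers. Nr4a3 rises with Nr4a1 along the HP1α samples from 215 to 842 CPM and with Irf4, while the HP1γ samples spread over 878 to 1663 CPM of Nr4a3 at Nr4a1 levels of 1564 to 2016 CPM. Myc is at 35.5 to 47.5 CPM in replicates 3 and 4 of the HP1γ line, where Egr3 is highest. It is at 43.8 CPM in HP1α WT replicate 3, where Egr3 is lowest.

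Myc and Egr3 had a negative correlation that did not pass an adjusted p under 0.05. Over 16 samples r was -0.74 and rho -0.65 (permutation p = 0.0104 and 0.0333, adjusted p of r = 0.0949). Without the 2 samples farthest from the median of Egr3, r was -0.73. The HP1γ samples fell into 2 clusters, with Myc at 35.5 to 47.5 CPM and Egr3 at 35.8 to 37.5 CPM in replicates 3 and 4, and at 52.3 to 58.3 CPM and 28.5 to 33.0 CPM in replicates 1 and 2, so the relation within that line cannot be tested. In the HP1α line r was -0.53 (exact permutation p = 0.177) and 0.11 without 2 samples, so the relation rests on few samples there. For Egr2 and Nfatc1 r was 0.98 in the HP1γ line (rho 0.93, exact permutation p = 0.00694 and 0.0122, adjusted p of r = 0.130; r = 0.99 without 2 samples) and -0.51 in the HP1α line (exact permutation p = 0.267). None of the 45 pairs passed an adjusted p under 0.05 within a line of 8 samples.

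Outside the members, 8 genes were named by their likeness to the mean of the 10 scaled members, by Pearson r over 16 samples among tested genes of at least 1 CPM. They were Nfkbid, which encodes a nuclear IkB protein (r = 0.91), Actr1b (0.90), Josd1 (0.89), Cd274, which encodes PD-L1 (0.89), Klf10, a TGF-beta inducible factor (0.87), Plk3 (0.87), Cish, a STAT-induced SOCS family gene (0.86), and Tsc22d2 (0.85). Being chosen as the highest over all genes tested, these values are inflated by selection. Over the 8 samples of the HP1γ line alone, r was 0.62 for Nfkbid, 0.90 for Actr1b and 0.27 for Tsc22d2. Nfkbid ranged from 159 to 416 CPM and Cish from 94.1 to 366 CPM over the 16 samples. The members themselves followed their mean unequally. Each member is part of that mean, which raises its r by an amount that was not removed. Their r with the mean was 0.90 for Nr4a1, 0.81 for Nr4a2, 0.80 for Nr4a3, 0.73 for Egr2, 0.72 for Irf4 and 0.58 for Cd69. It was 0.34 for Egr1, -0.0048 for Egr3, -0.015 for Nfatc1 and -0.21 for Myc. The likeness is thus mostly to the NR4A genes, Egr2 and Irf4, and not to all 10 members.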

How the data were processed

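RNA of 16 samples of sorted memory CD4+ T cells, 4 in each of 4 groups given by the sample labels, was sequenced by the authors as paired reads from stranded poly(A) libraries. In an nf-core workflow on the GRCm39 annotation, the authors used Trim Galore, STAR and Salmon, and deposited a table of estimated counts and a table of TPM for all genes. Counts were rounded before testing. Depth was 26694045 to 40199637 counts per sample, so that counting error is small beside the spread between samples for these genes.

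Each comparison was fitted with edgeR 4.0.16 (R 4.3.3, TMM scaling, filterByExpr, quasi-likelihood test) over all genes that passed the filter, with Benjamini-Hochberg adjustment over all of them. A gene was called at an adjusted p under 0.05. CPM values use the TMM-scaled totals, and log2 CPM used a prior count of 2. KO was compared with WT in 8 samples for each line, the knockout effects between lines in 16, and WT groups in 8. The study's tool, DESeq2 1.42.0, and limma 3.58.1 on log2(TPM + 1) were among the alternatives. All 10 members passed the filter in each fit, with the same fits applied to all genes. Correlations were tested by 100000 shuffles within groups over 16 samples and by all 576 shuffles within a line (numpy). Where 2 samples were left out of a pair, they were the farthest from the median of 1 gene only. That was the gene named first, or Egr3 for Myc and Egr3, so extremes of the other gene could remain. Promoters are of GRCm39 with canonical starts of the GENCODE annotation. The tests were checked on simulated data, and the 24 pairs of samples within groups were compared for duplicates. Their chi-square per gene was 10.4 or more, above sampling noise.

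The members and lists were chosen with earlier results of these data known. Named genes were the 10 members, Cbx5 and Cbx3, up to 5 called genes of each pathway list in each comparison by smallest p (or the 1 gene with the smallest p), and the 8 genes most like the members' mean. The treatment label carried by all 16 samples, which speaks of transferred cells, did not match the methods and was not used. Some markers and promoters are not reported here.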

Additional observations from a re-analysis of the deposited data

Results flagged for a closer look

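Within the 40 groups of 4 samples (10 genes in 4 groups), 7 held a sample whose distance from its nearest neighbour was large beside the range of the group, where chance gives about 1 in 20. Nr4a2 was at 332 CPM in HP1γ KO replicate 4, below 434 to 445 CPM in the others, and Irf4 was at 394 CPM in HP1γ WT replicate 2, above 283 to 294 CPM. Egr2 was at 40.4 CPM in HP1α WT replicate 3 (others 26.7 to 28.6 CPM) and at 49.8 CPM in HP1γ KO replicate 2 (others 40.1 to 41.2 CPM). Egr3 was at 32.7 CPM and Myc at 39.1 CPM in HP1α KO replicate 4, where the other samples held 25.0 to 26.1 CPM and 57.8 to 60.0 CPM. Cd69 was at 350.2 CPM in HP1α WT replicate 4 (others 279 to 288 CPM). Irf4 in the HP1γ line was called by edgeR without that sample and by DESeq2 with it, as given above.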

How the results depend on the processing

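The number of members called was 0 in the HP1α line and 0 for the knockout effects between lines under every setting run. In the HP1γ line it was 1 under DESeq2 (Irf4) and 0 to 1 when 1 sample was left out, and 0 otherwise. Between WT littermates (5 members) it was 2 with the replicate block, 3 with a robust dispersion, 3 with limma at a TPM pseudocount of 1, 3 with limma at one of 0.1, and 1 to 5 when 1 sample was left out. The cause was not tested. Labels do not pair same-numbered samples, and the main fits were not paired. In the HP1α line, correlations of deviations between same-numbered KO and WT samples ran from 0.0941 to 0.229 (mean 0.162). The mean was -0.0539 between other numbers, and 3 of 4 KO samples correlated best with their own number. Variation shared by same-numbered samples of that line stays in the spread of the main fits, and its source was not tested. The mean for same numbers was 0.0863 in the HP1γ line and -0.119 between WT groups. With the replicate block, 0 members were called in either comparison of KO with WT and 0 between lines, and 0, 60, 13 and 577 genes in all for the HP1α, HP1γ, between-line and WT comparisons.

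The median correlation of member pairs (0.04) was 0.39 when group means were not removed, -0.012 by Spearman rho, and -0.016 to 0.15 when 1 sample was left out. Without the removal, differences between groups enter each pair. Egr3 in the HP1γ line (log2 fold change -0.0042) was 0.00063 with at least 10 counts in every sample, 0.0283 with limma at a TPM pseudocount of 1 and 0.0296 at 0.1. Signs also turned among uncalled log2 fold changes when 1 sample was left out. In the HP1α line the range was -0.091 to 0.32 for Nr4a1, -0.17 to 0.34 for Nr4a2, -0.29 to 0.39 for Nr4a3, -0.10 to 0.26 for Egr2, -0.031 to 0.13 for Egr3 and -0.014 to 0.14 for Cd69. In the HP1γ line it was -0.069 to 0.078 for Nr4a1, -0.011 to 0.13 for Egr2, -0.057 to 0.067 for Egr3, -0.22 to 0.028 for Myc and -0.0066 to 0.11 for Nfatc1. It was -0.46 to 0.052 for the difference of Nr4a2 between lines and -0.11 to 0.016 for Myc between WT littermates.

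Over all genes, DESeq2 called 8 in the HP1α line (0 in edgeR, and 0 to 3 when 1 sample was left out), 265 in the HP1γ line (49) and 78 between lines (8). Other settings of the HP1γ comparison gave 96 in a fit of all 16 samples, 31 with at least 10 counts in every sample, and 28 and 32 with limma on the higher and the lower pseudocount. Between lines the count was 14 with no filter and 4 with limma on log2(TPM + 0.1). Between WT littermates limma gave 1175 and 1210, and leaving out 1 sample gave 573 to 2185, beside 1896. With 4 samples in a group, precision was lowest for Nr4a3 and Nr4a1 in the HP1α line, with 95% intervals of -0.90 to 1.07 and -0.50 to 0.79.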
